A study of Mus musculus with 12 samples.

Results

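The cytosolic ribosomal protein genes were described in the cerebral cortex of mice with and without Egfr, the epidermal growth factor receptor gene. Genes were taken by name: symbols that start with Rpl or Rps followed by a number, with or without a trailing letter or l and digit, and Rpsa, Rplp0, Rplp1 and Rplp2, without the copies named -ps. Of 55357 genes in the deposited tables, 90 carried such a name, and 87 of them reached a mean of 1 CPM (counts scaled to library size) over the 12 libraries. The lowest member was Rpl32l at 1.08 CPM, and the 3 genes just outside were Rpl39l at 0.078 CPM, Rpl3l at 0.076 CPM and Rpl10l at 0.0013 CPM. The members divide into 51 genes of the large subunit and 36 of the small subunit. In GENCODE M21, 81 members are protein-coding and 6 are not: Rps3a2, Rps3a3, Rps12l1, Rpl6l and Rpl32l are processed pseudogenes and Rps4l is a transcribed processed pseudogene. The mitochondrial ribosome has its own proteins, encoded by 78 other genes that are not members.

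The tissue was cortex together with hippocampal formation from pups at postnatal day 5, and each brain gave a front (rostral) and a back (caudal) sample. The deleted animals, Nestin-EgfrF/F (cKO), carry floxed Egfr on both alleles and a recombinase driven by the Nestin promoter, which is active in neural progenitors. Controls are named EgfrF/+ in the protocol, with 1 floxed allele, and WT in the genotype field, and whether the recombinase is also present in them is not labelled. Each genotype had 3 animals (control T4, T8 and T70; cKO T3, T6 and T80), and both pieces of each were sequenced, so that 4 groups had 3 libraries each. By their Xist and Ddx3y reads, 2 of the control and 1 of the cKO animals were female, the others male.

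A eukaryotic ribosome is built from ribosomal RNA and ribosomal proteins in nearly equal numbers, so the mRNAs of the members are made in broadly matched amounts in most cells. The mRNAs commonly start with a run of C and T bases, the 5′ terminal oligopyrimidine tract, through which the mTOR kinase and the RNA-binding protein LARP1 set their translation and stability together. Egfr signals to mTOR, among other pathways. Some members also have duties away from the ribosome: Rpl5 and Rpl11 bind Mdm2 and so stabilise p53, and Rpl22 and its close relative Rpl22l1 bind RNA outside the ribosome.

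The annotated starts of 11 members described below are shown because the tract at this place is the sequence these genes are known to share. RefSeq windows on GRCm38.p6 were at hand for 62 of the 87 members (71.3%), which is too few to give a share over the members; Rps4l has none. Each window runs from 10 bases before the annotated start to 20 after it, 5′ to 3′ on the gene's strand, and the longest unbroken run of C and T is in capitals.
Rps18 (chr17:33955646-33955675, minus strand): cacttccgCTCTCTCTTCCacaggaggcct
Rps24 (chr14:24490668-24490697, plus strand): gctggggTCCTTCCTTgcgcgttgatatga
Rps27 (chr3:90213629-90213658, minus strand): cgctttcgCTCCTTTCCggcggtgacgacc
Rpl22l1 (chr3:28805498-28805527, plus strand): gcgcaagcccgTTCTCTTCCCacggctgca
Rpl35 (chr2:39005112-39005141, minus strand): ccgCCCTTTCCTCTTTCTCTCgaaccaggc
Rps26 (chr10:128626487-128626516, minus strand): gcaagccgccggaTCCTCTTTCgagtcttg
Rps12 (chr10:23787190-23787219, minus strand): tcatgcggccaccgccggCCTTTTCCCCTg
Rpl38 (chr11:114668570-114668599, plus strand): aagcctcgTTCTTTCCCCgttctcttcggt
Rpl26 (chr11:68901556-68901585, plus strand): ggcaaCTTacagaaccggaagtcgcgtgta
Rps16 (chr7:28350679-28350708, plus strand): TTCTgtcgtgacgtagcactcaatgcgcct
Rpl6 (chr5:121204491-121204520, plus strand): aCCTCCCgtcattgcttatagaccggaagc
The first 8 of these windows hold a run of 9 to 18 bases, and those of Rpl26, Rps16 and Rpl6 hold runs of 3, 4 and 6. Over all 32851 windows at hand, 17.9% held a run of 7 or more. The 11 shown were picked, so they give no share to set beside it. Among other members named below, the longest run was 3 in Rpl22, Rpl5 and Rpl23 and 4 in Rps28 and Rps4x. It was 17 in Rpl15 and 10 in Rps6 and Rplp2. The marked run may lie anywhere in the window, so it is not by itself the tract. Those of Rpl26, Rps16 and Rpl6 end before the annotated start. Some of the longer runs begin after it, such as that of Rps12. A window without a long run says only that these letters are not at this annotated start.

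Libraries held 43810241 to 87170063 counts, and the members drew 702084 to 1164190 of them. Egfr, the deleted gene, was at 39.3 to 49.0 CPM in the 6 control libraries and 5.73 to 14.7 CPM in the 6 cKO libraries. It was lower in cKO on the summed counts of each animal by 2.10 on the log2 scale (SE 0.11, edgeR adjusted p = 0.0019). A single library differed from the rest, cKO rostral T6: counts of mitochondrially encoded protein genes made up 7.68% of it, against 1.59% to 3.58% of the other 11. Summed neuronal markers were at 7832 to 10813 CPM and hippocampal markers at 417 to 1078 CPM over the 12 libraries, so the labelled tissue was seen in each. The T6 rostral library also had the lowest summed level of the astrocyte marker list (1033 CPM, against 2074 to 3179) and of the meningeal fibroblast list (39 CPM, against 155 to 1039). Results for the cKO are therefore given with and without T6 wherever T6 changes the call. The T3 libraries stood apart in other lists. Choroid plexus markers were at 403 CPM in cKO rostral T3, against 5 to 16 CPM in the other rostral libraries. Meningeal fibroblast markers were at 155 CPM in cKO caudal T3, against 523 to 1039 CPM in the other caudal libraries.

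The members as a whole took a small and even share of the counts. That share was 1.44%, 1.43% and 1.35% in the control rostral libraries of T4, T8 and T70, and 1.41%, 1.59% and 1.56% in their caudal libraries. In the cKO animals T3, T6 and T80 it was 1.61%, 1.24% and 1.49% rostrally and 1.60%, 1.37% and 1.46% caudally. The group means were 1.41% ± 0.048 (SD, n = 3) in control rostral, 1.52% ± 0.093 in control caudal, 1.45% ± 0.19 in cKO rostral and 1.48% ± 0.12 in cKO caudal. All 4 groups overlapped, and the spread within the cKO groups was wider than any difference between group means. T3 was high in both of its pieces and T6 low in both.

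The ratio of large- to small-subunit counts was 1.35 to 1.40 in 11 libraries and 1.49 in cKO rostral T6. The pseudogene copies named -ps, 322 genes in all, drew 11.2 to 12.5 counts for every 100 member counts in 11 libraries and 14.5 in cKO rostral T6. Both measures thus set the same library apart, the one with the high mitochondrial share. The part of that share in these ratios was not tested.

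**Figure D1:**
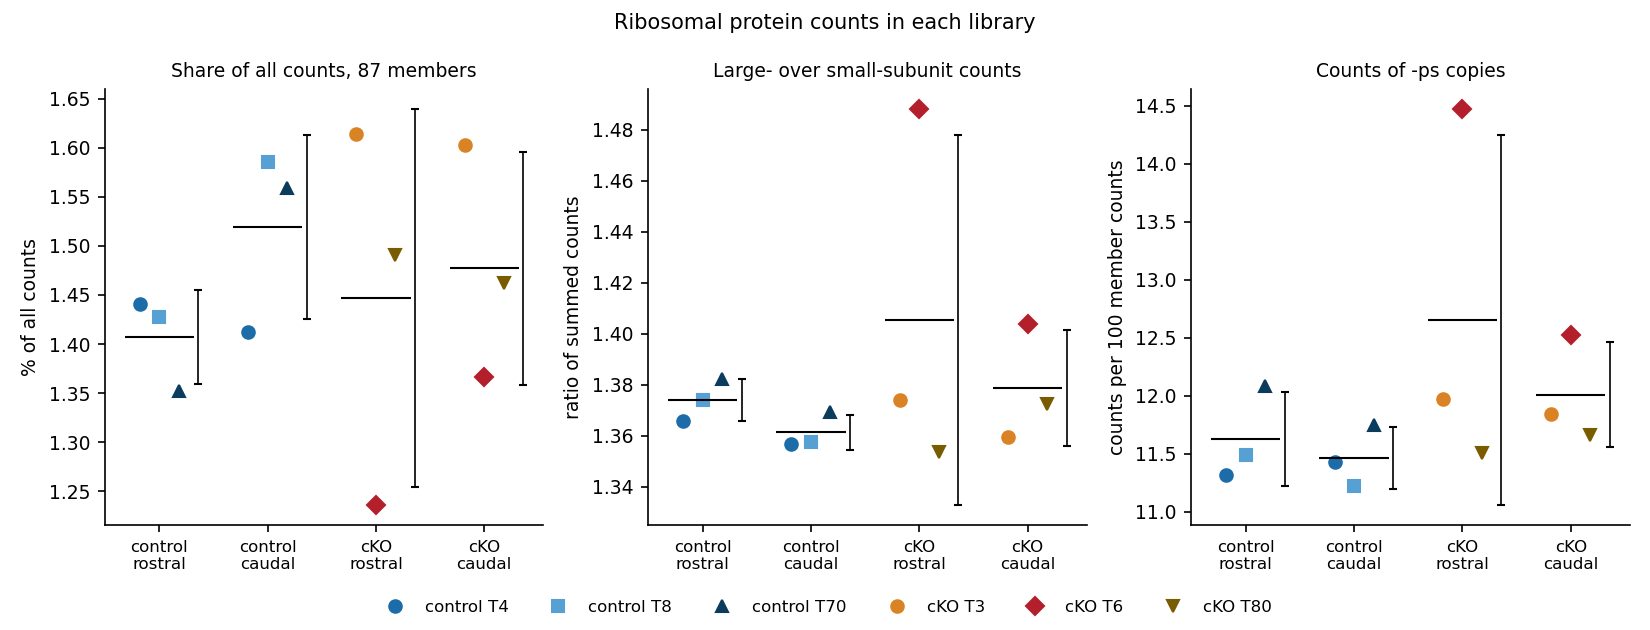
Share of all counts taken by the 87 members (left, %), ratio of summed large- to small-subunit counts (middle) and counts of -ps copies per 100 member counts (right) in each library, by group. Points are libraries, marked by animal, lines are group means and bars are SD (n = 3); axes do not start at 0. The cKO rostral library of T6 is lowest on the left at 1.24% and highest in the other panels, at 1.49 and 14.5.

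Levels differed far more between members than between libraries. Of the 87 members, 58 reached a mean of 100 CPM. Per kilobase of annotated exon, which depends on how many isoforms are annotated, the highest members were Rplp1 (452 CPM per kilobase), Rps15 (392), Rplp0 (277), Rps2 (256) and Rpl23a (255). Rplp0 and Rplp1 belong to the stalk of the large subunit, where elongation factors dock. The lowest were Rpl32l (2.702 CPM per kilobase), Rpl7l1 (11.8), Rps27l (13.5), Rpl36al (14.2) and Rpl6l (14.6), each named as a copy or relative of another member. Over the 12 libraries the highest value of a member was between 1.13 and 2.86 times its lowest, with a median of 1.45, and 49 members stayed under 1.5 times.

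The steadiest members by the SD of log2 CPM were Rpl6 (0.05), Rpl27 (0.06), Rpl7l1 (0.06), Rpl24 (0.06) and Rpl7 (0.08). Rpl6, a protein of the large subunit, ran from 265 to 299 CPM over the 12 libraries. The most variable were Rpl22l1 (0.51), Rps4l (0.46), Rpl26 (0.41), Rpl35 (0.35) and Rps14 (0.34). The median SD was 0.15 for the members and 0.19 for the 16041 genes with a mean of 1 CPM or more. Since the tissue is bulk, fewer cells of a type and less RNA per cell cannot be told apart in any of these values.

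In rostral cortex no member differed between cKO and control at an adjusted p under 0.05 (edgeR quasi-likelihood test), and neither did any of the 20599 genes tested, so that 0% were called. At an unadjusted p under 0.05 there were 3 members, against 9.49% of all genes, among them Rps4l and Rps12. DESeq2 called no member either, though it called genes outside the members. Without T6 edgeR called 1058 genes in rostral cortex and 1 member, Rps4l, described below. The median log2 fold change was 0.11 for the members and 0.04 for all genes. Of the 87 members 63 (72.4%) were above 0, against 55.6% of all genes. In 19 members the 2 groups did not overlap, 17 with cKO higher and 2 with cKO lower, beside 19.7% of all genes.

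Rps12, a protein of the small subunit, was at 110, 113 and 96.4 CPM in control rostral and 132, 178 and 121 CPM in cKO rostral (T3, T6 and T80). The groups did not overlap, and T6 was the highest library. Its log2 fold change of 0.43 (SE 0.15) had an adjusted p of 0.47 in edgeR. Toward lower values the smallest unadjusted p belonged to Rpl22l1 (log2 fold change -0.49, SE 0.31), Rpl15 (-0.10, SE 0.09) and Rpl8 (-0.14, SE 0.13), none of which passed (edgeR adjusted p = 0.58, 0.65 and 0.67).

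In caudal cortex again no member passed in edgeR, while 17 of 20705 genes did (0.0821%). The lowest adjusted p of a member was 0.18, for Rps16. At an unadjusted p under 0.05 there were 8 members, 2 higher and 6 lower in cKO, against 14.5% of all genes. The median log2 fold change of the members was -0.04, beside 0.0045 for all genes. Above 0 were 32 members (36.8%), against 50.9% of all genes. Groups did not overlap in 14 members (4 with cKO higher, 10 lower), beside 23% of all genes.

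Rps16, a protein of the small subunit, was at 81.0, 86.5 and 87.7 CPM in control caudal and 69.2, 65.6 and 73.4 CPM in cKO caudal. The groups did not overlap, and the log2 fold change was -0.28 (SE 0.07). DESeq2 put its adjusted p at 0.028, so the call depended on the tool. Rpl38, a large-subunit protein known for a part in translating Hox mRNAs, was at 84.0, 94.0 and 95.3 CPM in control caudal and 76.1, 74.9 and 77.9 CPM in cKO caudal (log2 fold change -0.25, SE 0.07, edgeR adjusted p = 0.22). Rps28 had a log2 fold change of -0.25 (SE 0.08, edgeR adjusted p = 0.25). Rostrally the same genes went with different values: Rps16 had a log2 fold change of 0.03 (SE 0.11), Rps28 of 0.21 (SE 0.18) and Rpl38 of 0.38 (SE 0.23), where Rpl38 stood at 147 CPM in T6 and at 69.0 to 89.8 CPM in the other 5 rostral libraries. On the higher side in caudal cortex were Rpl23 (0.20, SE 0.08) and the pseudogene Rps3a2 (0.15, SE 0.06), with edgeR adjusted p of 0.31 and 0.32.

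On the summed counts of each animal, which use both pieces at once, no member passed in edgeR or DESeq2. In edgeR 41 of 22924 genes did (0.179%), and DESeq2 called more genes. There were 4 members at an unadjusted p under 0.05, all with cKO higher, against 15.4% of all genes. Among these, Rps12 had a log2 fold change of 0.26 (SE 0.09), Rpl23 of 0.28 (SE 0.11) and Rpl4 of 0.18 (SE 0.07). The median over members was 0.02, equal to that over all genes at 2 decimals, and 76 of the 87 members lay within 0.2 of 0. In 11 members the animals' values, each the mean CPM of both pieces, did not overlap between genotypes, beside 25.7% of all genes.

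Rpl22l1 had the lowest fold change of the members on the summed counts. This relative of Rpl22 lies at chr3:28859585-28861573 on the plus strand of GRCm39. It was at 49.7, 44.5 and 44.9 CPM in control rostral, and at 47.1, 50.1 and 46.0 CPM in control caudal. In cKO rostral T3, T6 and T80 had 37.2, 17.5 and 43.5 CPM, and in cKO caudal 40.0, 19.0 and 33.8 CPM. All 6 cKO libraries were below all 6 control libraries, and T6 was lowest in both pieces. The summed oligodendrocyte lineage markers were also higher in control, at 587 to 783 CPM against 377 to 573 CPM in cKO, with T6 rostral the lowest library. In cKO caudal, however, T6 had the highest sum, at 497 CPM against 439 CPM in T3 and 459 CPM in T80. For Rpl22l1 itself the values were as follows. The fold change on summed counts was -0.57 (SE 0.26, edgeR adjusted p = 0.34). Without T6 it was smaller, -0.29, but more even (SE 0.04), and passed with an edgeR adjusted p of 0.020, in a fit that called 685 genes in all. On summed counts 3 of the 14 oligodendrocyte lineage genes fell with all animals and 5 without T6, among them Olig1 and Olig2 (-0.90, SE 0.07, and -0.59, SE 0.07, with all animals). Of the 15 astrocyte markers 2 fell with all animals, and without T6 7 fell and 1 rose. The astrocyte sums overlapped, at 2518 to 3179 CPM in control and 1033 to 3179 CPM in cKO. The part of these cell types in the Rpl22l1 difference was not tested. Rpl22 itself was at 158 to 175 CPM in control and 154 to 192 CPM in cKO, with a summed fold change of 0.07 (SE 0.08) on the log2 scale.

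Between the rostral and the caudal piece of the control brain, 1 of the 87 members passed. Of 20461 genes 2492 did (12.2%), 1289 higher and 1203 lower caudally. The main region and interaction fits did not pair the pieces of an animal. With the animal as a block no call of a member changed. Scaled by library totals alone, 2845 genes passed, 2074 higher and 771 lower, and Rps15a and Rpl39 passed with them. At an unadjusted p under 0.05 there were 4 members against 25.8% of all genes, and groups did not overlap in 3 members against 31.3%. The log2 fold changes of the members (caudal over rostral) were tightly placed, 84 of 87 within 0.2 of 0, with a median of 0.04 beside 0.0043 for all genes. The middle of all genes was wider, with quartiles at -0.12 and 0.15, against 0.01 and 0.08 for the members.

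The exception was Rps4l, a transcribed processed pseudogene whose symbol marks it as a relative of the small-subunit gene Rps4x, at chr6:148256154-148257096 on the plus strand of GRCm39. It was at 14.1, 12.7 and 12.4 CPM in control rostral and 27.2, 28.3 and 26.7 CPM in control caudal. The groups were far apart, with means of 13.1 ± 0.92 and 27.4 ± 0.84 CPM (SD, n = 3), and the log2 fold change was 1.06 (SE 0.07, edgeR adjusted p = 1.42e-05). Rps4x on the X chromosome overlapped between the pieces, at 287 to 306 CPM in control rostral and 275 to 314 CPM in control caudal. Rps4l lies within the span of Tmtc1, which is on the opposite strand, and the strand setting of the counting is not given. Tmtc1 itself was at 79.9, 74.3 and 70.3 CPM in control rostral and 53.1, 48.0 and 55.1 CPM in control caudal, the opposite order. The caudal pieces also had the higher summed hippocampal marker list (528 to 638 CPM, against 417 to 456 rostrally), choroid plexus list (14 to 223 CPM, against 7 to 8) and meningeal fibroblast list (523 to 674 CPM, against 204 to 451). They had the lower oligodendrocyte lineage list, at 587 to 653 CPM against 708 to 783 CPM, with 8 of 13 genes called lower. The part of these cell types in the Rps4l difference was not tested.

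Next after Rps4l came Rps15a (log2 fold change 0.14, SE 0.05), Rpl39 (0.18, SE 0.07) and Rps27 (0.16, SE 0.07), none of which passed (edgeR adjusted p = 0.095, 0.12 and 0.18). Toward the rostral side were Rps3a2 (-0.14, SE 0.06), Rpl12 (-0.08, SE 0.06) and Rpl13 (-0.05, SE 0.05), also without passing.

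In the cKO no member passed between the pieces, in edgeR or DESeq2, and none of 20944 genes did in edgeR (0%). No member had an unadjusted p under 0.05, against 1.66% of all genes, and groups did not overlap in 8 members, against 5.72%. The median of the members was -0.09 (all genes -0.02), with 16 members above 0 (18.4%), against 45.7% of all genes. Scaling by library totals alone moved this median to 0.02 and that of all genes to 0.09. Rps4l was at 21.2, 14.5 and 21.7 CPM in cKO rostral T3, T6 and T80 and at 21.4, 29.6 and 21.2 CPM in cKO caudal. T6 thus had the control order, while T3 and T80 had nearly the same level in both pieces, between the control levels.

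The position of a library between the control regions was read over the 2491 genes other than Rps4l that passed between them. A value of 0 is the mean of control rostral, and 1 is that of control caudal. The position was 0.86 in cKO rostral T3, -0.08 in T6 and 0.64 in T80, and 0.56, 1.16 and 0.81 in the caudal libraries. On the same scale Rps4l alone stood at 0.66, 0.14 and 0.68 rostrally and at 0.67, 1.10 and 0.66 caudally. The libraries labelled rostral of T3 and T80 were thus displaced toward the caudal end over many genes, and Rps4l was displaced with them. The part of that displacement in the Rps4l values was not tested. In T3 the order was reversed, with 0.86 rostrally and 0.56 caudally, while Rps4l was nearly level. The T3 sums of choroid plexus, hippocampal and meningeal fibroblast markers were also higher rostrally, against the control order. They were 403, 746 and 709 CPM rostrally and 230, 623 and 155 CPM caudally. Its oligodendrocyte lineage sum kept the control order, at 573 and 439 CPM. Whether the pieces of T3 were exchanged was not tested, and the labels were kept in every cKO comparison.

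The interaction of genotype and region called no member, in edgeR or DESeq2, and none of 21599 genes in edgeR (0%), with 5 members at an unadjusted p under 0.05, all below 0, against 3.55% of all genes. The median over members was -0.14 (all genes -0.03), and 10 of the 87 members (11.5%) were above 0, against 44.4% of all genes. Rps4l had -0.73 (SE 0.23, edgeR adjusted p = 0.9997). Leaving out T6 made its interaction pass (-1.06, SE 0.11, edgeR adjusted p = 0.00098, with 475 genes called in that fit), and also its rostral difference between genotypes (0.72, SE 0.09, edgeR adjusted p = 0.0088, with 1058 genes called). Without T6 its region difference in the cKO was -0.0013 (SE 0.09). The cKO rostral libraries left in these fits, T3 and T80, are those displaced toward the caudal end, at 0.86 and 0.64. Genotype and the position of the piece cannot be told apart there. The other members with the smallest p were Rpl38 (-0.63, SE 0.26) and Rps16 (-0.31, SE 0.13) below 0, and Rps3a2 (0.12, SE 0.11), Rpl13 (0.17, SE 0.17) and Rpl15 (0.06, SE 0.13) above it.

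**Figure D2:**
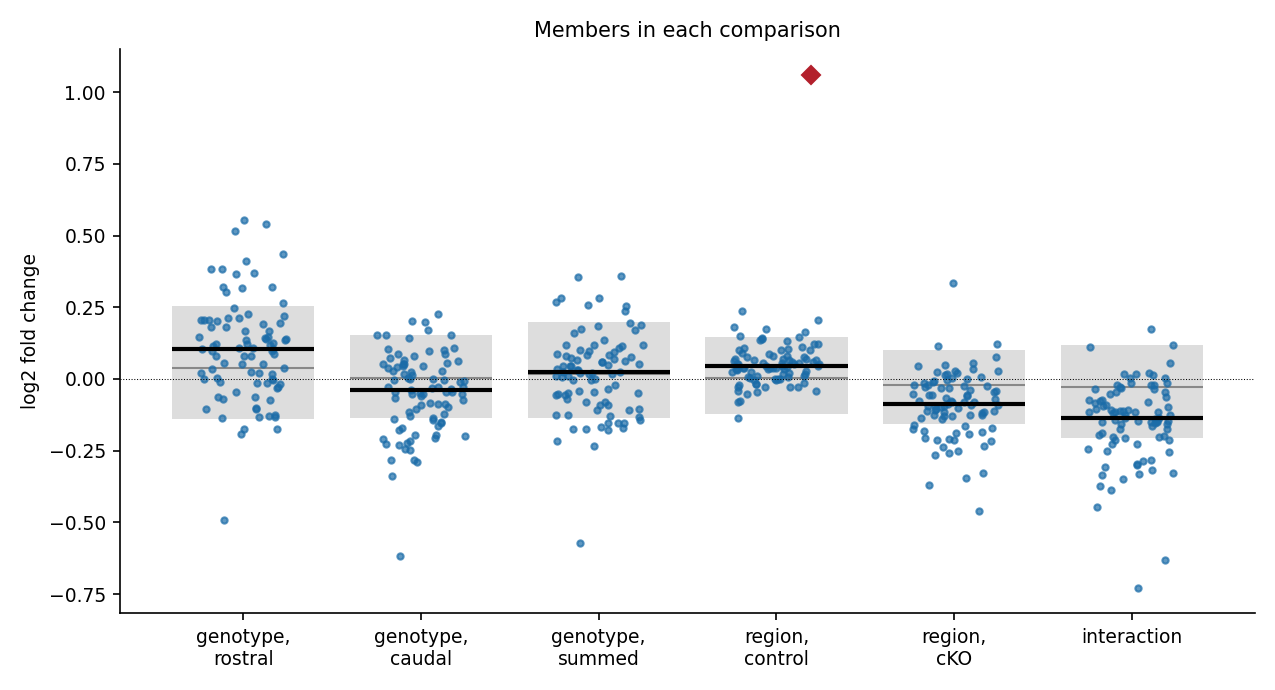
Log2 fold change of each of the 87 members (points, spread sideways at random) in the 6 comparisons: cKO over control in rostral, caudal and summed counts, caudal over rostral in control and in cKO, and their interaction. Black lines are member medians (0.11, -0.04, 0.02, 0.04, -0.09 and -0.14), grey lines and boxes are the median and quartiles of all genes tested, and the red diamond is Rps4l, the only member past an adjusted p of 0.05 in these fits.

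The members' values varied between animals of the same genotype, in large part the same way in both pieces of an animal. The deviations of an animal's rostral and caudal libraries from their group means correlated across the 87 members with r between 0.34 (T4) and 0.77 (T6), while across 21595 genes r was between -0.0021 (T6) and 0.46 (T80). Genes are not independent, so these are descriptions. A split of each gene's variance of log2 CPM put a median of 53.8% between animals of a genotype for the members, against 34.5% for the 16041 genes with a mean of 1 CPM or more. The between-animal term holds 36.4% of the degrees of freedom. The gap was also there at high levels: among genes of 100 CPM or more the medians were 57.4% for 58 members and 33.4% for all 2317 genes. More than 50% lay between animals in 47 members (54.0%), against 25.8% of all genes. Without T6 the medians were 37.6% and 22.8%, with 33.3% of the degrees of freedom.

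**Figure D3:**
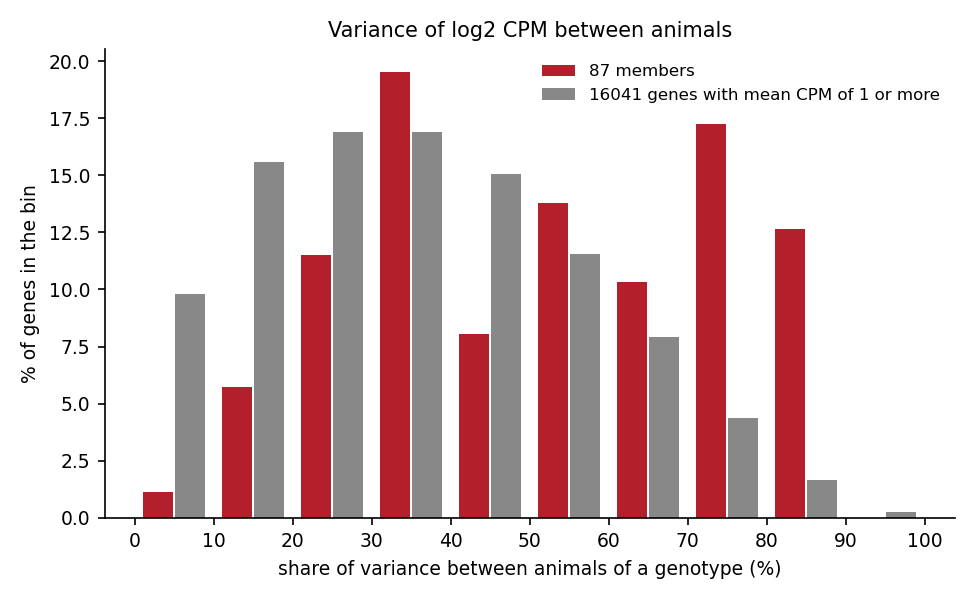
Share of a gene's variance of log2 CPM that lies between animals of a genotype (x axis, %, in bins of 10) against the percentage of genes in each bin, for the 87 members (red) and 16041 genes with a mean of 1 CPM or more (grey). The members have a median of 53.8% and all genes one of 34.5%.

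A test of the 4 differences between animals of a genotype, added after these values were seen, called 1 member and 40 of 21599 genes (0.185%) in edgeR. These counts depended on the tool and the filter: DESeq2 called 21 members and 821 genes, and without the filter on low counts edgeR called 8 members and 171 genes. Without T6 edgeR called 5 members and 127 genes. At an unadjusted p under 0.05 it found 33 of the 87 members, against 11.8% of all genes. The member was Rpl26, a protein of the large subunit that also binds p53 mRNA, at chr11:68792409-68797815 on the plus strand of GRCm39 (edgeR adjusted p = 0.021). It was at 50.3, 53.5 and 78.6 CPM in control rostral T4, T8 and T70, and at 52.9, 54.5 and 80.6 CPM in their caudal libraries. In cKO T3, T6 and T80 it was at 91.6, 50.6 and 92.0 CPM rostrally and at 94.2, 44.8 and 78.8 CPM caudally. The 6 libraries of T4, T8 and T6 were at 44.8 to 54.5 CPM and those of T70, T3 and T80 at 78.6 to 94.2 CPM, with both genotypes in each range and no library between. Copies named Rpl26-ps added at most 0.44 CPM in a library. The call did not hold without T4, T8, T70 or T80 in turn, where the adjusted p in edgeR was 0.057 to 0.19. Genotype showed no such division for Rpl26, with a summed fold change of 0.28 (SE 0.26) on the log2 scale.

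Rps18, a small-subunit protein at chr17:34170973-34174975 on the minus strand of GRCm39, came next with an edgeR adjusted p of 0.0505, which was 0.0017 without T6 and 4.12e-12 in DESeq2. It was at 134, 135 and 168 CPM in control rostral and 137, 149 and 176 CPM in control caudal (T4, T8, T70). In cKO T3, T6 and T80 it was at 181, 92.7 and 112 CPM rostrally and 182, 105 and 104 CPM caudally. T70 and T3 were thus high and T6 and T80 low in both pieces. Its 7 -ps copies summed to the reverse order in several animals, with T80 highest at 114 and 106 CPM, T70 at 47.5 and 45.2 CPM and T3 lowest at 42.6 and 41.5 CPM. Adding the copies to Rps18 brought the ratio of its highest to its lowest library from 1.97 to 1.45. Reads of such near-identical copies may be divided between genes, and how the deposited counts treat them is not given, so the values of Rps18 by animal are uncertain.

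Rps24, of the small subunit, is likewise divided by animal. It was at 177, 188 and 254 CPM in control rostral and 169, 189 and 276 CPM in control caudal, so that T70 was highest among the controls in both pieces. In cKO it was at 211, 340 and 222 CPM rostrally and 213, 285 and 212 CPM caudally, with T6 highest (edgeR adjusted p = 0.12, and 0.012 without T6). Its 2 -ps copies had a mean of 107 CPM and were lowest in T70, at 71.6 and 75.3 CPM. With them added, its highest library was 1.82 times its lowest, instead of 2.01. The other members called without T6 were Rpl21 and Rpl30, both of the large subunit (edgeR adjusted p = 0.030 and 0.031). Rpl21 was lowest in T80, at 201 CPM rostrally and 204 CPM caudally, against 228 to 304 CPM in the other 10 libraries. Rpl30 was highest in T3, at 97.6 and 101 CPM, against 67.8 to 91.1 CPM in the other 10. Of the 50 members whose -ps copies reach a mean of 1 CPM together, the ratio of highest to lowest fell in 29 when the copies were added.

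**Figure D4:**
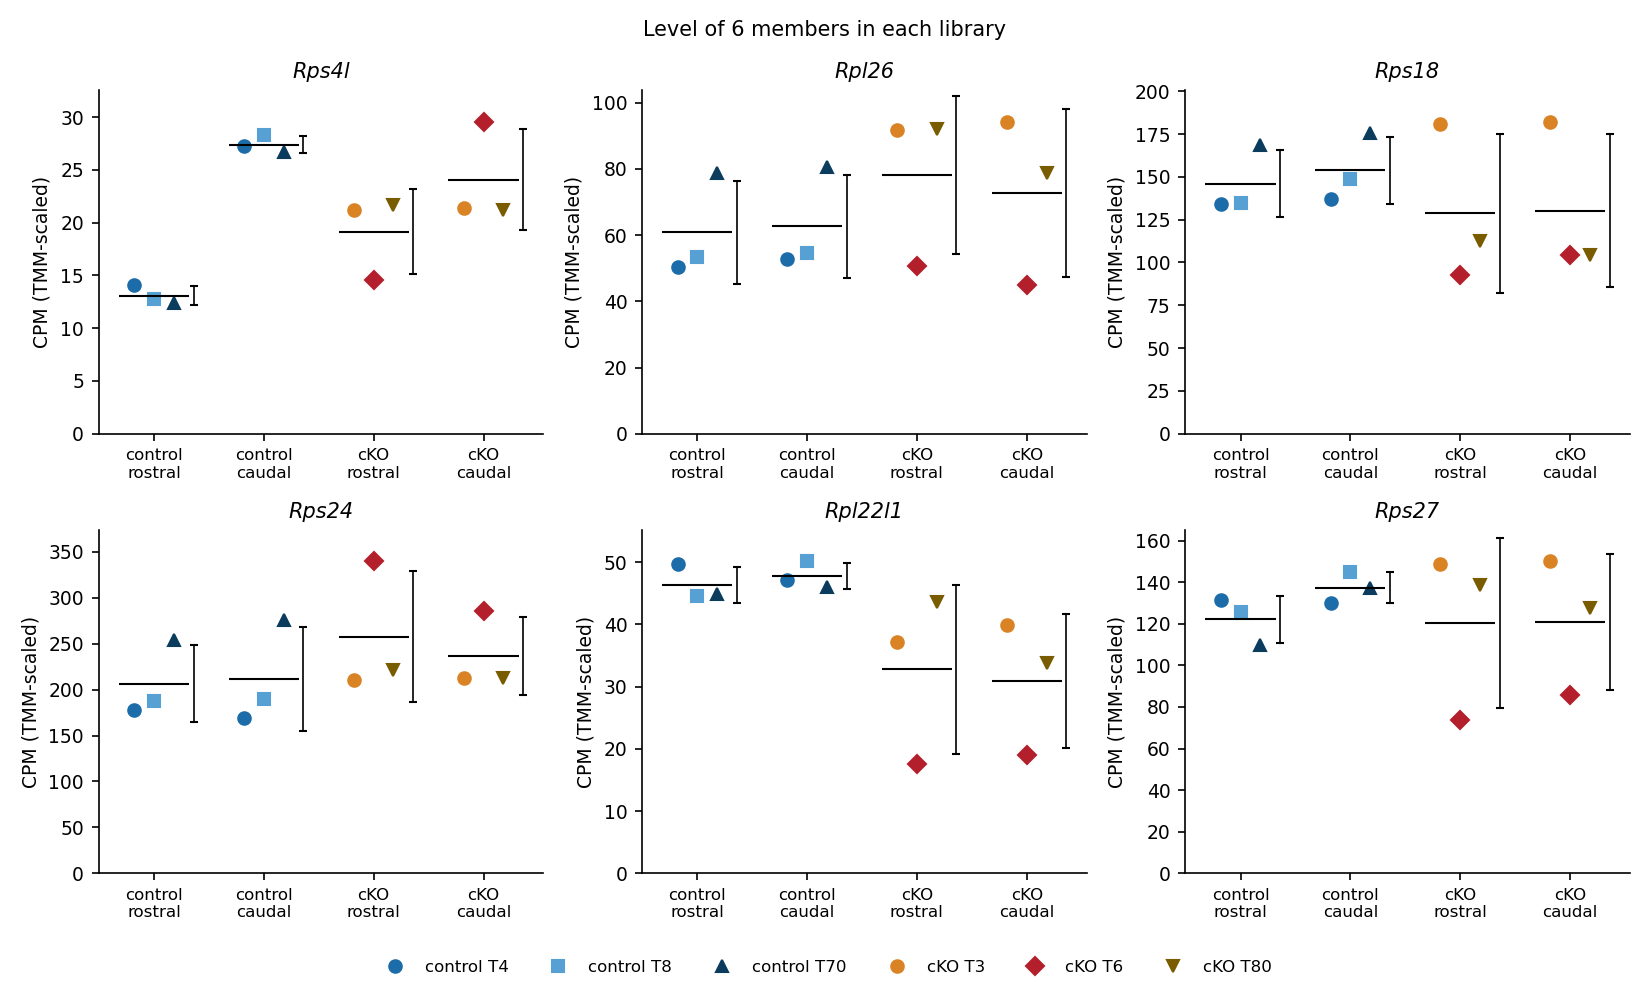
CPM (y axis, from 0) of Rps4l, Rpl26, Rps18, Rps24, Rpl22l1 and Rps27 in each of the 12 libraries by group. Points are libraries, marked by animal, lines are group means and bars are SD (n = 3). Rps4l separates control rostral (12.4 to 14.1) from control caudal (26.7 to 28.3), while Rpl26, Rps18 and Rps24 keep the same high and low animals in both pieces.

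T6 was the animal most often at the edge. Both of its libraries lay outside the other 10 in 31 members (35.6%), against 25.5% of the 16041 genes. In 8 members T6 was above: Rpl23, Rpl28, Rpl35, Rpl6, Rpl7a, Rps24, Rps26 and Rps3a3. In 23 it was below, among them Rpl22l1, Rps14, Rps27, Rps4x, Rpl9, Rpl39 and Rplp1. Rpl35, of the large subunit, was at 261 and 172 CPM in T6 and 106 to 136 CPM in the other 10 libraries. Rps26, of the small subunit, was at 388 and 279 CPM, against 193 to 250 CPM. Rps27 was at 73.7 and 85.6 CPM, against 110 to 150 CPM, and Rps14 at 112 and 160 CPM, against 220 to 255 CPM. So members of 1 subunit went to opposite ends in the same 2 libraries. In T6 the summed ribosome biogenesis list was also highest, at 2876 CPM rostrally and 2383 CPM caudally against 2063 to 2226 CPM in the other 10, and mitochondrially encoded genes stood at 91954 and 35261 CPM against 15297 to 33501. The part of RNA quality or cell makeup in these differences was not tested.

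T3 came second, with both libraries above the other 10 in 12 members (13.8%, against 4.51% of all genes) and below them in none. These include Rplp0, Rps27, Rps27a, Rps18 and Rpl30. T70 was below the others in 5 members (5.75%, against 2.06% of all genes), T4 in 3 (3.45%, against 2.99%) and T80 in 1 (1.15%, against 2.81%). T8 was above in 3 (3.45%, against 2.32%). The shares of all genes count those above and those below.

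**Figure D5:**
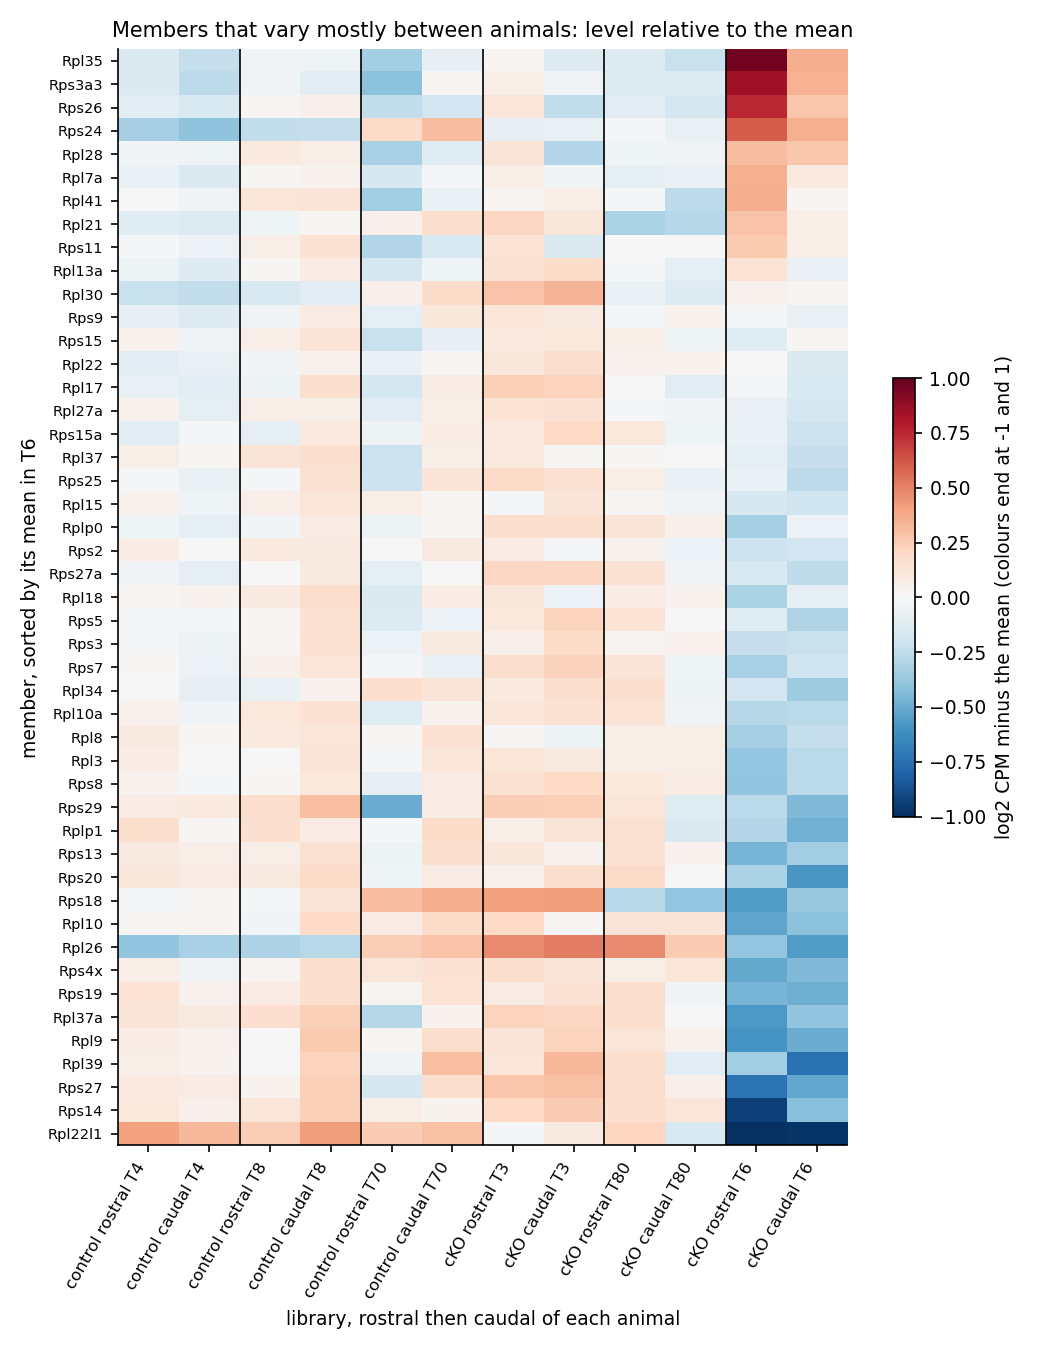
Log2 CPM minus its mean over 12 libraries for the 47 members with more than 50% of their variance between animals of a genotype (colour, ending at -1 and 1), with the rostral and caudal library of each animal side by side and members sorted by their mean in T6. Both T6 columns, at the right, carry most of the strong colour, from Rpl35 at the top to Rpl22l1 at the bottom, and the row of Rpl26 is high in T70, T3 and T80.

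Among the members with known duties away from the ribosome, Rpl5 was at 185 to 213 CPM in control and 195 to 287 CPM in cKO, with T6 rostral the highest (summed log2 fold change 0.19, SE 0.08). Rpl11, which acts beside it on Mdm2, was at 105 to 128 CPM in control and 103 to 129 CPM in cKO (0.02, SE 0.08). The stalk proteins had summed log2 fold changes of 0.05 (SE 0.10) for Rplp0, -0.18 (SE 0.12) for Rplp1 and -0.23 (SE 0.12) for Rplp2. Rpsa, which encodes a small-subunit protein also known as the laminin receptor, was at 615 to 724 CPM in control and 669 to 740 CPM in cKO (0.07, SE 0.06). Rps6, whose protein is a substrate of the S6 kinases below mTOR, was at 171 to 195 CPM in control and 178 to 215 CPM in cKO (0.07, SE 0.06). None of these 7 passed in any of the 6 comparisons.

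Relatives of other members had lower mean levels than their namesakes per kilobase of annotated exon. Rpl7l1 was at 11.8 CPM per kilobase and Rpl7 at 110. Rpl36al was at 14.2 CPM per kilobase and the X-linked Rpl36a at 46.3, while Rps27l, a p53 target, was at 13.5 and Rps27 at 120. Rpl22l1 was at 19.8 CPM per kilobase and Rpl22 at 58.6, and Rps4l was at 22.2 and Rps4x at 175.

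The genes around the ribosome gave few calls as well. None of 36 translation factors, 38 ribosome biogenesis genes and 78 mitochondrial ribosomal protein genes passed in any of the 6 comparisons. On the summed counts, the smallest p among the translation factors belonged to Eif4b, an initiation factor phosphorylated by S6 kinase (log2 fold change 0.28, SE 0.07, edgeR adjusted p = 0.18). Among the biogenesis genes it was Bop1, a pre-rRNA processing factor (-0.26, SE 0.07, edgeR adjusted p = 0.22). The mitochondrial ribosomal protein genes had a median of -0.10 there, with 15 of 78 above 0, beside 0.02 for all genes.

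Of 20 genes of the mTOR and LARP1 list, none passed by genotype. Eif4ebp1, the translation repressor that mTOR inactivates, had a summed log2 fold change of 0.86 (SE 0.23, edgeR adjusted p = 0.20), and Rps6kb2, an S6 kinase, of 0.38 (SE 0.08, edgeR adjusted p = 0.13). Between the control regions, where 12.2% of all genes passed, 2 of the 20 fell caudally: Deptor, an mTOR inhibitor (-0.67, SE 0.10, edgeR adjusted p = 0.0016), and Myc, which drives ribosome genes (-0.47, SE 0.08, edgeR adjusted p = 0.0029). The list median there was -0.09.

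The p53 target list, 19 of 20 genes tested, gave no call by genotype and 4 between the control regions, beside 12.2% of all genes. Perp (0.76, SE 0.09) and Sesn1 (0.22, SE 0.06) rose caudally, and Pmaip1 (-1.19, SE 0.16) and Zmat3 (-0.35, SE 0.07) fell. Of the 19 genes of the integrated stress response list, counting both that are named Ddit3, 3 rose caudally in control and none fell, beside the same 12.2%: Nupr1 (1.28, SE 0.20), Phgdh (0.46, SE 0.06) and Ddit4 (0.42, SE 0.07). Phgdh is strongly expressed in astrocytes. Of the 15 astrocyte markers, Gfap (0.94, SE 0.11) and Gja1 (0.49, SE 0.11) rose caudally in control, and Kcnj10 (-0.52, SE 0.05) and Aldh1l1 (-0.28, SE 0.06) fell. Their sum was 2518 to 2836 CPM in control rostral and 2799 to 3179 CPM in control caudal, and its part in the Phgdh difference was not tested. No gene of the stress list passed by genotype.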

How the data were processed

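RNA was measured in 12 libraries by paired-end sequencing of captured mRNA, per the labels' protocols. The authors deposited expected counts per gene, made with STAR 2.7.8a and featureCounts 2.0.3 on GRCm39, per the submitters' processing notes. Which annotation was used, whether strand was read and how shared reads were counted is not given in the sources at hand. Fractional values made up 9.69% to 14.3% of each library (43.9% of the members' values), and all were rounded to whole counts. The tests chosen for whole counts were used.

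The members and the gene lists were chosen with earlier results of these data known. R 4.3.3 with edgeR 4.0.16 fitted each comparison to the libraries it concerns. The fit used filterByExpr, TMM scaling, a robust quasi-likelihood F test over all genes, Benjamini-Hochberg adjustment and a threshold of 0.05. It was first run on simulated counts with the same dispersion for all genes. That run bears on the code and not on the spread between animals here. CPM values are TMM-scaled over the 12 libraries. The variance split used log2 of CPM plus 0.1. SE values are the log2 fold change over the root of F. The members' share of counts and their medians have no test. Figures show values from these fits.

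Named genes were Egfr, the members with the smallest p in each comparison and direction, the 5 steadiest and 5 most variable, the 5 highest and lowest per length, Rpl5, Rpl11, Rplp0, Rplp1, Rplp2, Rpsa, Rps6, copies with their parents, and up to 4 genes of each pathway list. Members named beside the animal test, with the -ps copies or at the edge in T6 and T3 were chosen after their values were seen. The rule also named a member that is not reported here.

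A T number in the titles was taken as 1 animal, which pairs its rostral and caudal libraries. Their deviations from group means correlated over 21595 genes with r = 0.030 (T3), 0.27 (T4), -0.0021 (T6), 0.25 (T8), 0.33 (T70) and 0.46 (T80). The alternatives were DESeq2 1.42.0, RLE scaling, library totals, scaling without members, copies and mitochondrial genes, no filter, each animal left out, and the animal as a block.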

Additional observations from a re-analysis of the deposited data

How the results depend on the processing

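The members together had at least 702084 counts in each library, and each genotype had 3 animals. Of the alternative values of counts, medians and shares, 183 stayed close to the reported value and 56 moved. Close means within 1.5 times for a count, 0.075 on the log2 scale for a median, 1 SD over libraries for a share of counts and 1 percentage point for the share of variance. The cause of the changes below was not tested.

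Genes called with DESeq2 numbered 394 in rostral cortex, 519 in caudal cortex, 804 on summed counts, 4 for region in cKO, 11 for the interaction and 821 between animals. Members called with it numbered 1 in caudal cortex (Rps16) and 21 between animals. Without the filter on low counts 45, 326, 320, 2 and 171 genes were called in rostral, caudal, summed, interaction and animal tests, and 4 members between the control regions and 8 between animals. Library totals alone gave 19 genes on summed counts, 3 members between the control regions, a member median of 0.021 for region in cKO and 59.1% of the variance between animals. Both RLE scaling and scaling without members, copies and mitochondrial genes gave 2 members between animals. In the main fits 12.2% of all genes passed between the control regions and 0.185% between animals. With -ps copies added, the share of counts was 1.57% in control rostral, 1.69% in control caudal and 1.65% in cKO caudal.

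With each animal left out in turn, rostral calls ran from 0 to 1058 genes and 0 to 1 member, caudal calls from 0 to 162 genes, summed calls from 1 to 685 genes and 0 to 1 member, interaction calls from 0 to 475 genes and 0 to 1 member, and animal calls from 15 to 127 genes and 0 to 5 members. In all of these the highest count came without T6. Control region calls ran from 1079 (without T8) to 1690 genes and from 1 to 2 members (without T4, where Rpl39 joined Rps4l). Without T6 the share of variance between animals was 37.6%.

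Signs changed only in values that had not passed. By library totals the control region difference was 0.018 for Rpl13 and 0.0046 for Egfr. Over animals left out, it ran from -0.16 to 0.053 for Egfr. The cKO region difference ran from -0.0013 to 0.52 for Rps4l, from -0.049 to 0.27 for Rpl13 and from -0.57 to 0.36 for Egfr, and the interaction from -0.013 to 0.098 for Rpl15 and from -0.50 to 0.42 for Egfr. With the animal as a block, the cKO region difference of Egfr was -0.027. The block changed no other sign and no call of a member: Rps4l had 1.06 (SE 0.07, edgeR adjusted p = 8.8e-06) between the control regions, where 3144 genes passed.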
